A study of Mus musculus with 6 samples.

Results

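Voltage-gated sodium channel subunits were examined in hippocampal RNA of inhibitor-1 knockout (KO) and wild-type (WT) mice: the alpha subunit genes Scn1a, Scn2a, Scn3a and Scn8a and the beta subunit genes Scn2b, Scn3b and Scn4b. Members were all probe sets to which the platform annotation gives exactly 1 of these symbols, and each of the 7 genes had at least 1. They came to 20 of the 34958 probe sets with 1 symbol (14 for alpha and 6 for beta subunits), and to 7 of the 18194 genes so named. Scn2a was written under that symbol throughout, and 0 probe sets with several symbols included a member.

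Inhibitor-1, encoded by Ppp1r1a, restrains protein phosphatase 1 when protein kinase A has phosphorylated it. RNA of 3 KO and 3 WT samples was hybridised to an Affymetrix mouse array each, and the comparison asks which transcripts differ when inhibitor-1 is missing. Sex, age, strain, targeting construct and the number of animals behind an array are not given in the labels, so p-values cover only the spread among these samples, part of which may be technical.

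A voltage-gated sodium channel has a pore-forming alpha subunit and smaller beta subunits that tune its gating and its place in the membrane. The channels gather at the axon initial segment and the nodes of Ranvier, where they start and carry the action potential. In the adult forebrain Scn2a and Scn8a serve mainly excitatory axons, Scn1a is best known from parvalbumin interneurons, and Scn3a is most abundant before birth. Protein kinase A and protein kinase C phosphorylate brain alpha subunits and reduce sodium current.

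Ppp1r1a, the targeted gene, had intensities of 272, 249 and 347 on KO arrays, against 9061, 8370 and 10345 on WT arrays (probe set 1422605_at). All KO arrays lay far below all WT arrays, as their labels say. The log2 change was -4.93 (limma SE 0.18, adjusted p = 3.58e-07). Of 18 markers of hippocampal pyramidal and granule neurons 17 were tested. Their mean log2 level was 12.59 to 12.63 on KO arrays and 12.61 to 12.66 on WT arrays, so the groups differed by -0.02. No other tissue was measured, so these levels cannot check the tissue label. Median intensity was lowest on replicate 1 of each group, 542 in KO and 574 in WT, against 621 to 666 on the other arrays.

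Intensities were compared as log2(intensity + 16), and a fold on that scale understates the change of dim probe sets. Probe sets whose mean log2 value lay among the lowest 40% of the array (under 8.44, an intensity of about 332) were not tested. Of the 20 member probe sets 18 were tested, 12 for alpha and 6 for beta subunits. The sets left out were 1421705_at of Scn3a, with 60.2 to 243 on KO arrays and 64 to 263 on WT arrays, and 1442208_at of Scn8a, with 16.8 to 80.6 on KO arrays and 20.6 to 241 on WT arrays. Every member gene kept at least 1 tested probe set.

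None of the 18 sodium channel probe sets passed the threshold of an adjusted p under 0.05 (lowest limma adjusted p = 0.988), where 0.0111% of all 26999 tested probe sets passed. Their median log2 change was 0.02, beside 0.00398 over all tested probe sets, with 11 above 0 and 7 below. Of the 18 changes, 17 were within 0.2 of 0 on the log2 scale, and the exception belonged to Scn2b. At an unadjusted limma p under 0.05 there were 2 of 18 (11.1%, beside 4.38% of all tested probe sets), both of Scn2b and of opposite sign. The groups did not overlap for 3 of 18 (16.7%, beside 9.89% of all), 1 each of Scn2a, Scn2b and Scn8a. Each of these shares rests on 2 or 3 probe sets.

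**Figure D1:**
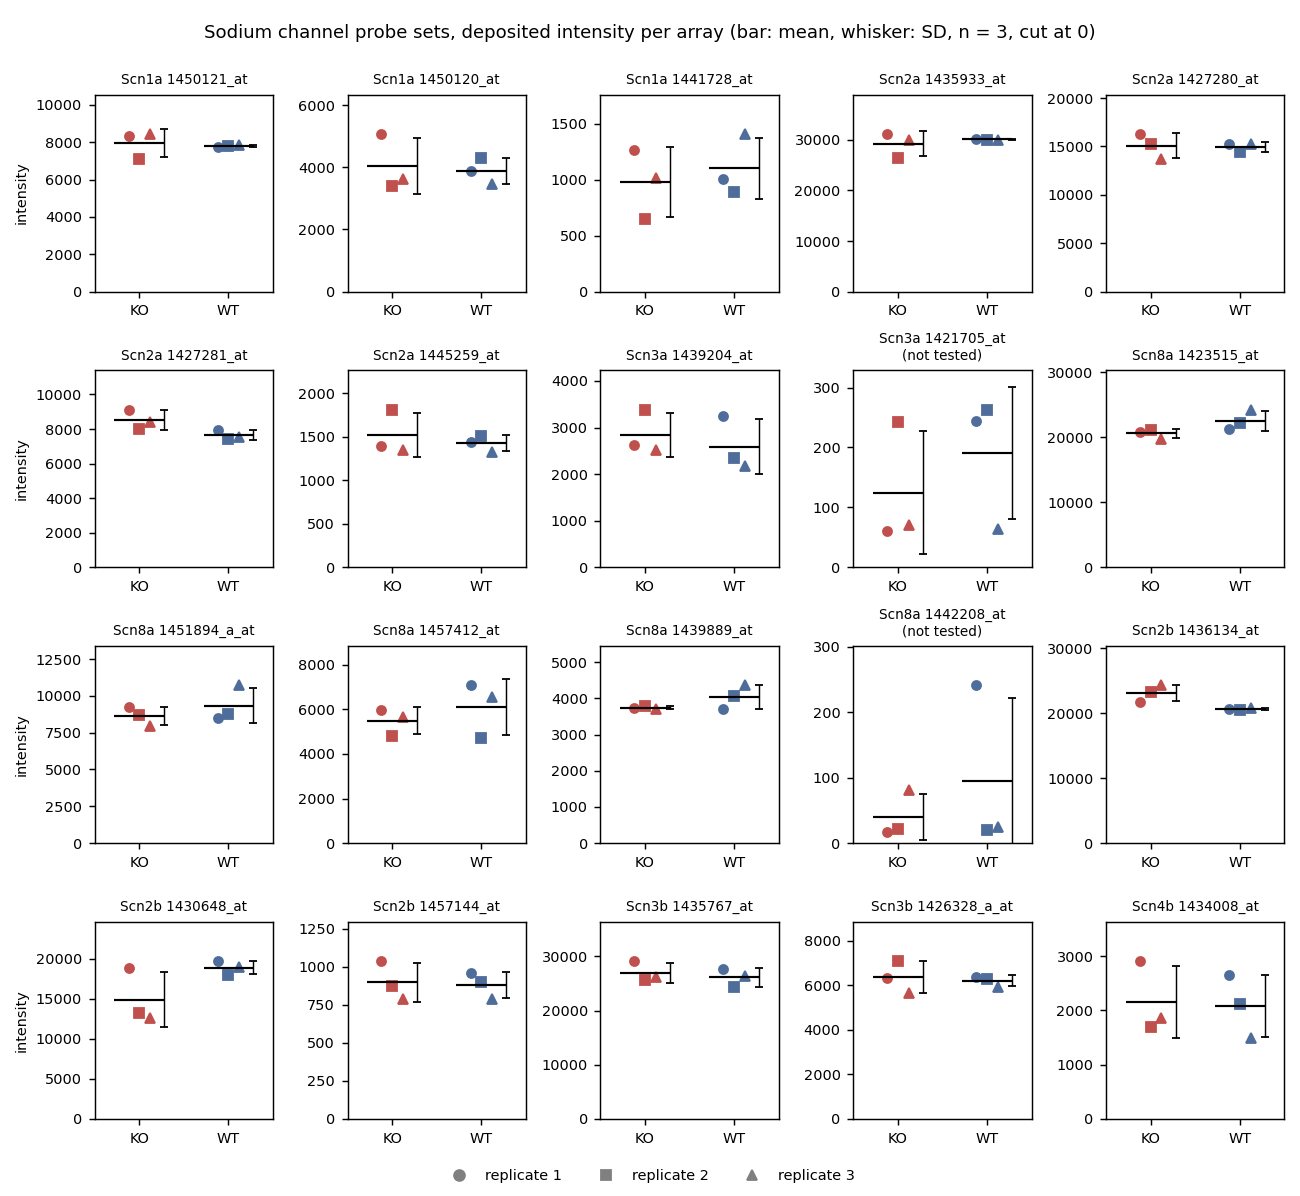
Deposited intensity (linear axis from 0) of the 20 sodium channel probe sets on each array, KO left of WT; marker shapes give the replicate number, horizontal bars the mean and whiskers the SD (n = 3, cut at 0). Groups were apart for 3 tested sets, with KO above WT for Scn2a 1427281_at and Scn2b 1436134_at and below it for Scn8a 1423515_at.

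**Figure D2:**
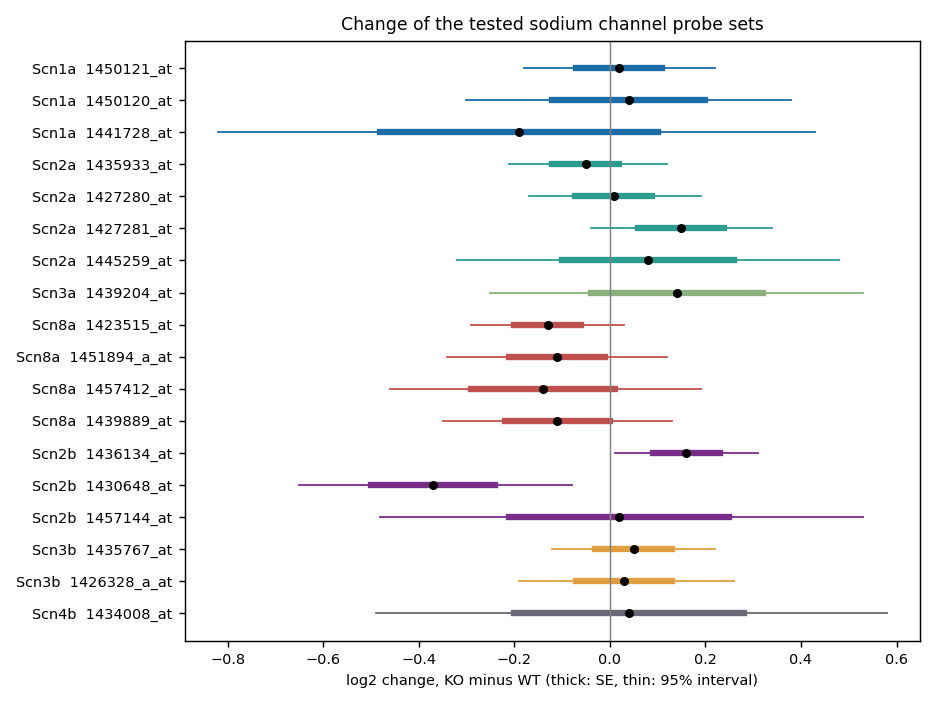
Log2 change, KO minus WT, of the 18 tested probe sets with SE (thick line) and 95% interval (thin line) from limma, coloured by gene. The 4 Scn8a changes sat between -0.14 and -0.11, and the 3 Scn2b changes between -0.37 and 0.16.

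Scn2a and Scn8a encode the alpha subunits of excitatory axon initial segments, Scn8a being the main one of mature nodes of Ranvier. Scn8a lies on chromosome 15, which also carries Ppp1r1a; Scn2a, Scn3a and Scn1a lie on chromosome 2, and the 3 beta subunit genes on chromosome 9. The brightest Scn8a probe set, 1423515_at, had intensities of 20889, 21152 and 19728 on KO arrays, against 21264, 22190 and 24243 on WT arrays. The KO arrays all lay below the WT arrays, though KO replicate 2 and WT replicate 1 were close. The means were 20589 ± 758 in KO and 22566 ± 1525 in WT (SD, n = 3 each), a log2 change of -0.13 (limma SE 0.07, adjusted p = 0.988).

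Another Scn8a probe set, 1451894_a_at, had 9211, 8703 and 7984 on KO arrays, against 8501, 8788 and 10705 on WT arrays. Probe set 1457412_at had 5979, 4819 and 5666 on KO arrays, against 7069, 4704 and 6538 on WT arrays. The dimmest tested one, 1439889_at, had 3732, 3776 and 3695 on KO arrays, against 3698, 4051 and 4355 on WT arrays. In all 3 the groups overlapped, WT replicate 1 or 2 lying among the KO values or below them. Their log2 changes were -0.11, -0.14 and -0.11 (SE 0.10, 0.15 and 0.11), so the 4 tested Scn8a sets spanned 0.03. Of the 637 genes with 4 tested probe sets, 99.7% spanned at least as much, and 10.2% had all 4 changes below 0. WT replicate 3 was the highest array for 3 of the 4 sets, and without it the log2 changes were -0.08 for 1423515_at, -0.00426 for 1451894_a_at and -0.05 for 1439889_at. The log2 change of 1457412_at was 0.05 once the level of the choroid plexus markers entered the fit. Averaged over its probe sets Scn8a had a log2 change of -0.12 (95% interval -0.31 to 0.07, limma adjusted p = 0.922).

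For Scn2a, the brightest probe set, 1435933_at, had 31175, 26486 and 30014 on KO arrays, against 30277, 30027 and 30011 on WT arrays. The WT arrays were nearly equal, and KO arrays lay on both sides of them. The log2 change was -0.05 (SE 0.07), and its 95% interval ran from 0.865-fold to 1.08-fold.

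Probe set 1427281_at was the Scn2a set whose groups were apart, with 9115, 8005 and 8430 on KO arrays against 7971, 7444 and 7545 on WT arrays. Its means were 8517 ± 560 in KO and 7653 ± 280 in WT (SD, n = 3 each), a log2 change of 0.15 (limma SE 0.09, adjusted p = 0.988). The gap between groups was narrow, KO replicate 2 standing just above WT replicate 1. Probe set 1427280_at, annotated to the same accession, had 16292, 15258 and 13694 on KO arrays and 15230, 14395 and 15277 on WT arrays, with a log2 change of 0.00782 (SE 0.08). It thus showed no such gap. Set 1445259_at ran from 1350 to 1809 on KO arrays and 1329 to 1508 on WT arrays, a log2 change of 0.08 (SE 0.18). Averaged over its 4 sets, Scn2a had a log2 change of 0.05 (95% interval -0.11 to 0.21).

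Scn1a encodes the alpha subunit that parvalbumin interneurons depend on. Its brightest probe set, 1450121_at, had 8320, 7091 and 8445 on KO arrays, against 7763, 7817 and 7871 on WT arrays. KO replicate 2 lay below all WT arrays and the other KO arrays above them. The log2 change was 0.02 (SE 0.09), and its 95% interval ran from 0.882-fold to 1.17-fold. Set 1450120_at, of the same accession, had 5077, 3412 and 3640 on KO arrays and 3889, 4313 and 3451 on WT arrays, a log2 change of 0.04 (SE 0.16). Set 1441728_at had 1267, 645 and 1018 on KO arrays and 1004, 889 and 1409 on WT arrays, a log2 change of -0.19 (SE 0.29). KO replicate 2 was the lowest of the 6 arrays in all 3 sets. The mean level of 14 interneuron markers was 12.79 to 12.84 on KO arrays and 12.73 to 12.87 on WT arrays.

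Scn3a, the alpha subunit of developing brain, was tested by probe set 1439204_at alone. It had 2616, 3383 and 2509 on KO arrays, against 3259, 2339 and 2172 on WT arrays. The groups overlapped, with the highest KO array (replicate 2) and the highest WT array (replicate 1) close together. The log2 change was 0.14 (SE 0.18, 95% interval -0.25 to 0.53), and 0.00725 without KO replicate 2. The mean level of 9 immature neuron markers was 12.55 to 12.75 on KO arrays and 12.45 to 12.65 on WT arrays, a difference of 0.09 whose part in the Scn3a value was not tested.

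Scn2b encodes a beta subunit that is linked to the alpha subunit by a disulfide bond and raises the number of channels at the surface. Its 2 bright probe sets had log2 changes of opposite sign, neither past the adjusted threshold. Probe set 1430648_at had 18852, 13200 and 12591 on KO arrays, against 19672, 17984 and 18975 on WT arrays. KO replicates 2 and 3 were low, while KO replicate 1 lay among the WT arrays. The means were 14881 ± 3452 in KO and 18877 ± 848 in WT (SD, n = 3 each), which gave a log2 change of -0.37 (standard error 0.13, limma unadjusted p = 0.0165, adjusted p = 0.988).

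Probe set 1436134_at had 21801, 23323 and 24290 on KO arrays, against 20709, 20486 and 20788 on WT arrays. All KO arrays lay above all WT arrays, and the WT arrays were nearly equal. The means were 23138 ± 1255 in KO and 20661 ± 157 in WT (SD, n = 3 each), a log2 change of 0.16 (SE 0.07, limma unadjusted p = 0.0377, adjusted p = 0.988). The third set, 1457144_at, was dim, with 1035, 874 and 784 on KO arrays and 956, 900 and 788 on WT arrays. It had a log2 change of 0.02 (SE 0.23). Averaged over the 3 sets the change was -0.06 (95% interval -0.26 to 0.14).

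Set against each other within each array, a comparison chosen after the values were seen, log2 1436134_at minus log2 1430648_at was 0.21, 0.82 and 0.95 on KO arrays and 0.07, 0.19 and 0.13 on WT arrays. It was largest on KO replicates 2 and 3, and averaged 0.66 ± 0.39 in KO and 0.13 ± 0.06 in WT (SD, n = 3 each). The changes of the 3 Scn2b sets spanned 0.53, and 17.9% of the 1595 genes with 3 tested probe sets spanned at least as much. The annotation gives the 2 sets different accessions, AK013326 for 1430648_at and BQ175340 for 1436134_at, and which part of the transcript each reads was not analysed here.

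The same KO arrays stood apart in other measures. The mean log2 level of 16 choroid plexus and ependymal markers was 11.54, 12.23 and 12.13 on KO arrays, against 10.98, 11.81 and 11.74 on WT arrays, with 14 of 16 changes above 0. That of 14 meningeal and fibroblast markers was 11.49, 12.04 and 11.91 on KO arrays, against 11.40, 11.60 and 11.34 on WT arrays, with 14 of 14 above 0. KO replicates 2 and 3, where 1430648_at was low, were thus the highest arrays for both lists. On WT replicates 2 and 3 the choroid plexus level was also above that of KO replicate 1. The meningeal level was above that of KO replicate 1 (11.49) on WT replicate 2 (11.60) and below it on WT replicate 3 (11.34). On WT replicates 2 and 3 the Scn2b set 1430648_at had 17984 and 18975, against 18852 on KO replicate 1. The choroid plexus level itself differed by 0.46 (KO minus WT), so a fit that includes it does not fully separate it from genotype. With that level as a covariate the log2 change was -0.18 for 1430648_at (SE 0.12) and 0.13 for 1436134_at (SE 0.09). Without KO replicate 1 they were -0.55 (limma adjusted p = 0.0536) and 0.20 (limma adjusted p = 0.337). For beta-actin the ratio of 3' to 5' signal, a measure of RNA integrity, was 1.18 to 1.21 on KO arrays and 1.24 to 1.3 on WT arrays, while that of Gapdh was 0.821 to 0.829 on KO arrays, inside the 0.809 to 0.88 of the WT arrays. The part of the marker levels and of these ratios in the Scn2b values was not tested.

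**Figure D3:**
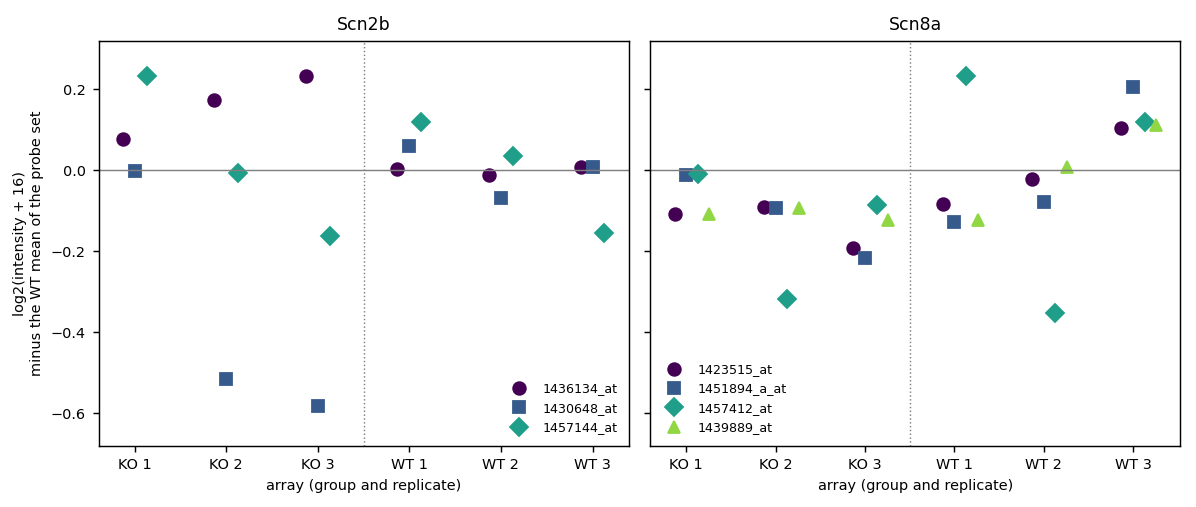
Log2(intensity + 16) of each tested Scn2b (left) and Scn8a (right) probe set on every array, minus that probe set's WT mean; KO arrays are left of the dotted line. Scn2b 1430648_at was low on KO replicates 2 and 3, where 1436134_at was high, while the 4 Scn8a sets mostly lay at or below the WT mean on KO arrays.

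Scn4b, the other disulfide-linked beta subunit and a source of the peptide thought to carry resurgent sodium current, is rich in striatum. Its only probe set, 1434008_at, had 2908, 1703 and 1853 on KO arrays, against 2648, 2114 and 1493 on WT arrays. The groups overlapped widely, replicate 1 being the highest of each. The log2 change was 0.04 (SE 0.24, 95% interval -0.49 to 0.58), the widest interval of the 3 beta subunits' brightest sets. It ran from -0.19 (without KO replicate 1) to 0.24 (without WT replicate 1) when 1 array was left out, and was 0.43 (limma unadjusted p = 0.0593, adjusted p = 0.816) once the level of the choroid plexus markers entered the fit. The mean level of 11 striatal markers was 11.37, 11.05 and 11.06 on KO arrays and 11.32, 11.01 and 11.10 on WT arrays. It was likewise highest on replicate 1 of each group, and its part in the Scn4b values was not tested.

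Scn3b encodes a beta subunit that binds without a disulfide bond. Probe set 1435767_at had 29092, 25702 and 26165 on KO arrays, against 27644, 24317 and 26341 on WT arrays. Probe set 1426328_a_at had 6353, 7087 and 5670 on KO arrays, against 6400, 6289 and 5944 on WT arrays. The groups overlapped for both, and the log2 changes were 0.05 (SE 0.08) and 0.03 (SE 0.10). For the brighter set the 95% interval ran from 0.92-fold to 1.16-fold.

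Scn2b and Scn4b stand next to each other among the measured genes of chromosome 9, and their start regions differ in base composition. The upstream start region of Scn8a is closer to that of Scn4b. Windows of 300 bases, 250 before to 50 after the annotated start, are shown for these 3 genes from RefSeq (GRCm38.p6), with CpG dinucleotides in capitals. They lie at chr15:100870395-100870694 for Scn8a (the upstream of its 2 annotated starts), chr9:45117626-45117925 for Scn2b and chr9:45138374-45138673 for Scn4b, all on the plus strand.
Scn8a: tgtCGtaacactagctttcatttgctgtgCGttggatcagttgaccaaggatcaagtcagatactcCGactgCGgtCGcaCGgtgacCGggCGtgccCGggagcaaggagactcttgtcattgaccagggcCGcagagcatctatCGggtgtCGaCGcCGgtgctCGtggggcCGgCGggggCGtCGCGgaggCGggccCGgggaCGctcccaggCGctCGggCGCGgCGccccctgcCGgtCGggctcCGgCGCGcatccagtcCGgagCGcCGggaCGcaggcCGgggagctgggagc
Scn2b: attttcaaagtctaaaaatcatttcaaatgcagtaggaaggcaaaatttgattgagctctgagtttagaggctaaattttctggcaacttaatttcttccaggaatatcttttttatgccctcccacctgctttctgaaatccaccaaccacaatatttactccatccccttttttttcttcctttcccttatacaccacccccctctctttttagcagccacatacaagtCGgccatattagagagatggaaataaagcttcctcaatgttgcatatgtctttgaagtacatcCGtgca
Scn4b: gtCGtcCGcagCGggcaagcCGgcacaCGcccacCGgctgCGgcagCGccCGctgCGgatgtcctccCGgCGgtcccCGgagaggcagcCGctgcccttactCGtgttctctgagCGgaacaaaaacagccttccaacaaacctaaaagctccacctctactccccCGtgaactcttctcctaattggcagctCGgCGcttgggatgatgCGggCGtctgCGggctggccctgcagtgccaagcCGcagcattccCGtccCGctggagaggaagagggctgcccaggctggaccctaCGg
The Scn8a window held 38 CpG and 70% G and C, that of Scn2b 2 CpG and 38.3%, and that of Scn4b 26 CpG and 66.3%. Of 32851 such windows in the table, 4.95% had at least as many CpG as this Scn8a window, 85.9% as Scn2b and 16.9% as Scn4b. The window at the other Scn8a start, not shown, held 12 CpG and 53.3% G and C, and 39.6% of windows had at least as many CpG. Windows were found for 5 of the 7 genes, 7 in all, and not for Scn3a or Scn3b. The letters TGACG, the core of the cAMP response element, were searched on both strands and found in 0 of the 7, and in 20.8% of all windows. GGGCGG, the GC box, was also found in 0 of the 7, and in 35.7% of all windows on either strand.

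Changes of single subunits relative to each other were compared within arrays, for 3 pairs represented by their brightest probe sets. With 3 arrays against 3 the two-sided exact permutation test cannot go below p = 0.1. Log2 Scn1a minus log2 Scn3a averaged 1.49 ± 0.37 in KO and 1.61 ± 0.32 in WT, a change of -0.12 (SD, n = 3 each; exact permutation p = 0.6, adjusted p = 0.9). For Scn8a minus Scn2a the difference was -0.50 ± 0.15 in KO and -0.42 ± 0.10 in WT, a change of -0.08 (SD, n = 3 each; exact permutation p = 0.5, adjusted p = 0.9). Scn4b minus Scn2b was -3.45 ± 0.48 in KO and -3.34 ± 0.42 in WT, a change of -0.12 (SD, n = 3 each; exact permutation p = 1, adjusted p = 1). In each pair the shift between groups was smaller than the spread between replicates. Leaving out 1 array it ran from -0.30 to 0.09 for Scn1a minus Scn3a, from -0.17 to -0.03 for Scn8a minus Scn2a and from -0.39 to 0.07 for Scn4b minus Scn2b, the sign turning for Scn1a minus Scn3a without KO replicate 2 (0.09) and for Scn4b minus Scn2b without KO replicate 2 (0.04), KO replicate 3 (0.00605) or WT replicate 1 (0.07). With all tested probe sets of each gene averaged, Scn8a minus Scn2a changed by -0.17 (exact permutation p = 0.1, the smallest possible), and Scn4b minus Scn2b by 0.11 (exact permutation p = 0.8), opposite in sign to the value from the brightest sets.

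Scn8a lies 44 measured genes from Ppp1r1a in chromosome order and 6 from Pou6f1, a POU-domain transcription factor. Pou6f1 fell (probe set 1452844_at), to 6347, 6220 and 5804 on KO arrays against 11724, 11810 and 13190 on WT arrays, with means of 6124 ± 284 in KO and 12241 ± 823 in WT (SD, n = 3 each, limma adjusted p = 0.00132). So did Slc38a1, a neuronal glutamine transporter 57 genes from Scn8a (1415903_at), by a log2 change of -1.27 (limma adjusted p = 0.00132). Neither passed without an intensity trend in the variance (limma adjusted p = 0.503 and 0.351), and another tested probe set of each had a log2 change of -0.16 (Pou6f1) and 0.19 (Slc38a1). On the side of Pou6f1 the nearest genes were Slc4a8, a sodium-driven bicarbonate exchanger (log2 change -0.36), Galnt6, a glycosyltransferase (-0.68), Cela1 (-0.37) and Smagp (-0.25). Toward Ppp1r1a they were the activin-type receptor genes Acvrl1 (0.27) and Acvr1b (-0.16), A330009N23Rik (0.05) and the scaffold gene Grasp (-0.16). Of these 8 neighbours 6 had a change below 0, beside 6237 of all 12493 genes by their brightest set. Of the neighbours 0 passed the threshold (lowest limma unadjusted p 0.0632), and 0 had groups that did not overlap, beside 10.5% of all genes. Position near the targeted gene and loss of inhibitor-1 cannot be told apart in this design.

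**Figure D4:**
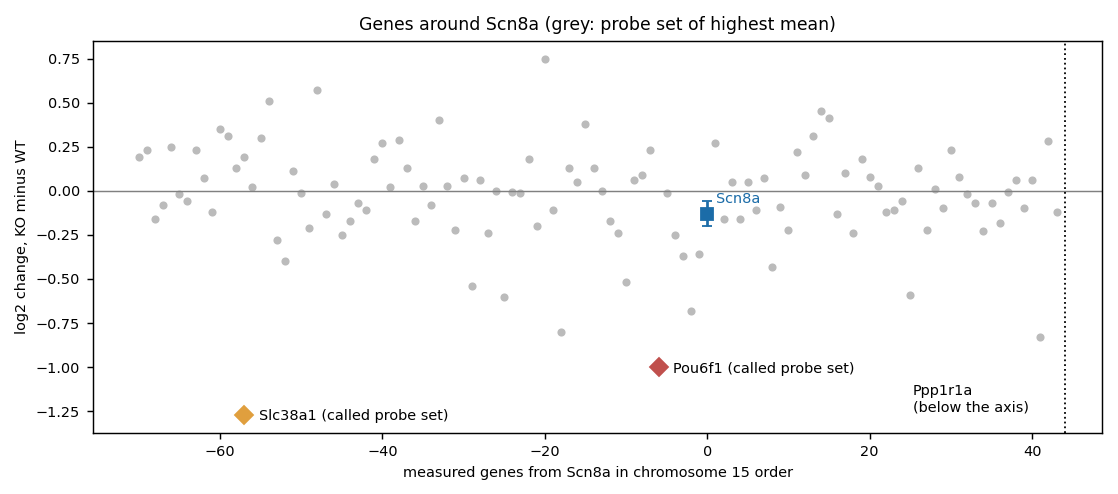
Log2 change, KO minus WT, of genes along chromosome 15 by their number of measured genes from Scn8a (grey points: probe set of highest mean; blue square: Scn8a 1423515_at with SE; diamonds: the called probe sets of Pou6f1 and Slc38a1; dotted line: Ppp1r1a). Scn8a at -0.13 lies among the bulk of the points, 6 genes from Pou6f1.

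Genes that work with sodium channels were then counted, each by its brightest tested probe set. Of the other sodium channel genes and the NALCN leak channel complex, 4 of 11 could be tested, and 0 passed the limma threshold or an unadjusted p under 0.05. Their median log2 change was 0.10, beside 3.26e-04 over all 12493 genes, of which 0.016% passed and 4.75% had an unadjusted p under 0.05. Nalcn, the leak channel, had a log2 change of 0.09 (SE 0.09), its partners Unc80 0.10 (SE 0.10) and Fam155a -0.06 (SE 0.10), and Scn7a, a sodium-sensing relative that was dim, 0.33 (SE 0.35). Scn9a, Scn10a and Scn11a were below the filter.

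Of 19 axon initial segment and node proteins 16 were tested, with 6 changes above 0 and 10 below (median -0.00995). None passed in limma, and 0 had an unadjusted p under 0.05. Ank3, encoding the ankyrin that anchors the channels, averaged 48881 ± 1305 in KO and 47530 ± 2307 in WT (SD, n = 3 each), a log2 change of 0.04 (SE 0.06). Sptbn4, the spectrin of the initial segment, averaged 6687 ± 468 in KO and 7349 ± 373 in WT (SD, n = 3 each), a log2 change of -0.14 (limma SE 0.09, adjusted p = 0.988). It was the 1 gene of 16 whose groups did not overlap, beside 10.5% of all genes by their brightest set. Among fibroblast growth factor homologous factors, which bind the channel's tail, Fgf12 had 0.16 (SE 0.11) and Fgf11 -0.35 (SE 0.23). The others of that family, Fgf13 and Fgf14, had -0.04 (SE 0.07) and -0.00928 (SE 0.48). The adhesion molecule gene Cntn1 had 0.06 (SE 0.07).

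Of 17 enzymes that modify the channels or cleave beta subunits 15 were tested, with 10 changes above 0 and 5 below (median 0.06). None passed in limma, and 0 had an unadjusted p under 0.05. The lowest unadjusted p were those of Adam10, a protease that sheds membrane proteins (log2 change 0.20, SE 0.10), and Nedd4l, a ubiquitin ligase that takes channels from the surface (0.19, SE 0.10). Among genes with a change below 0, the lowest p were those of the tyrosine kinase gene Fyn (-0.11, SE 0.08) and of Gsk3b, whose kinase acts on channel partners (-0.09, SE 0.09). Bace1, the secretase that cleaves beta subunits, had 0.03 (SE 0.09).

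**Figure D5:**
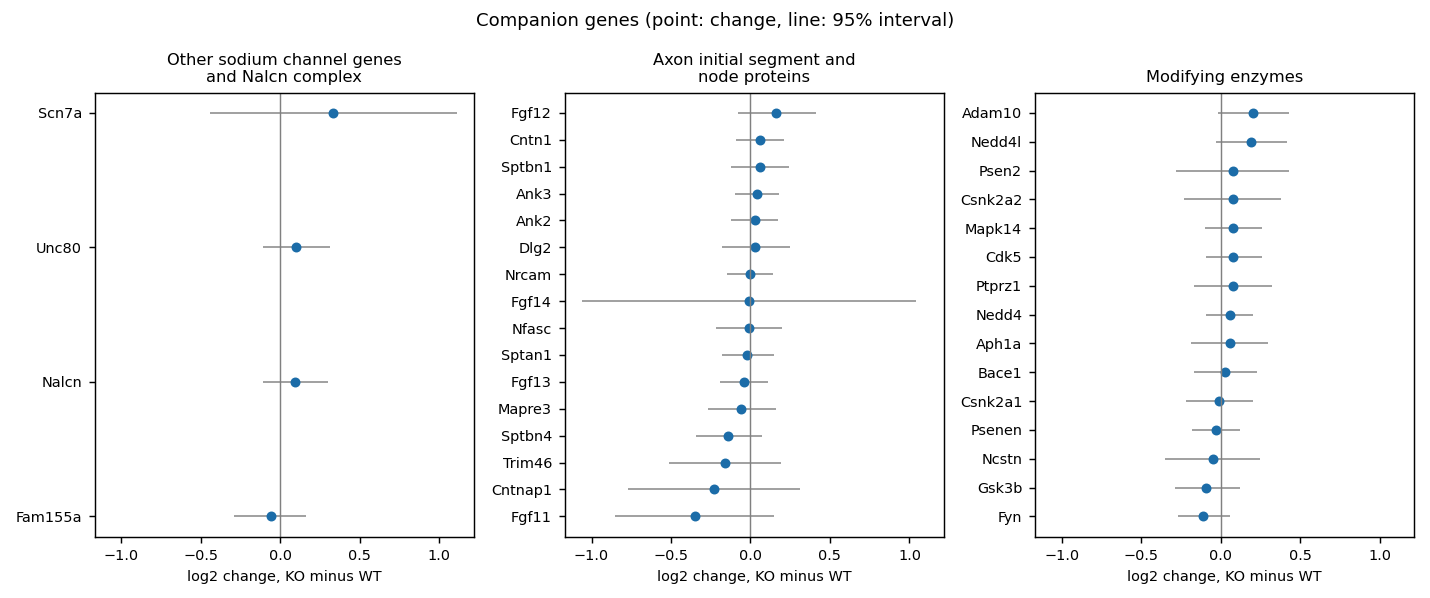
Log2 change, KO minus WT, with its 95% interval for the tested genes of the 3 companion lists, each by its brightest probe set. Every interval includes 0, and those of Fgf14 and Scn7a were the widest.

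Mean levels of other cell type lists were compared as well. The log2 differences, KO minus WT, were -0.00684 for interneurons, 0.02 for striatum, -0.06 for thalamus and habenula, -0.11 for oligodendrocytes and myelin, -0.04 for oligodendrocyte precursors, 0.03 for astrocytes, 0.08 for microglia and 0.02 for endothelial and mural cells. Those of the choroid plexus and meningeal lists were 0.46 and 0.36. In all 12 lists the KO and WT arrays overlapped. Fewer cells of a type and less RNA per cell cannot be told apart in such bulk samples.

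The gene whose pattern over the 6 arrays was nearest to each member, by the root mean square distance of centred log2 values, was Elac2 for Scn8a (0.0209), Pabpc4 for Scn2b 1436134_at (0.0236), Fto for Scn2a (0.0158) and Myl12b for Scn1a (0.0188). It was Tmem160 for Scn3b (0.0203), Cpox for Scn3a (0.0568) and Dglucy for Scn4b (0.0803). The median distance of all genes from these members was 0.172 to 0.369. Each nearest gene was picked as the smallest of these distances, so it lies below the median by selection. The members' own root mean square over the 6 arrays was 0.0748 (Scn2a) to 0.338 (Scn4b). Shared regulation was not tested.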

How the data were processed

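Hippocampal total RNA of 3 KO and 3 WT samples was measured on 1 array each. The deposited table holds linear intensity per probe set. The authors had scaled it, since trimming 2% from each end left a mean of 2500 on every array; their software is not given in the sources used. Names came from the platform annotation, and chromosomes and gene order from a RefSeq table (GRCm38.p6). Values were transformed as log2(intensity + 16), 64 control probe sets and the dimmest 40% were left out, and 26999 probe sets were fitted with limma 3.58.1 in R 4.3.3 (two-sided, 1 term for group, variances moderated along an intensity trend, Benjamini-Hochberg over all tested). Intervals are 95% and unadjusted. The fit was tested on simulated data. The rule names all members, Ppp1r1a, the 2 higher and 2 lower companions of smallest p per list, 4 measured genes on each side of Scn8a, Pou6f1, Slc38a1 and the gene nearest in pattern to each member; other names were chosen after values were seen. Members, lists and alternatives were chosen with earlier results of these data known. The number of arrays limits the precision, and no detection calls were used.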

Additional observations from a re-analysis of the deposited data

How the results depend on the processing

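No sodium channel probe set and no companion gene passed in any of the 16 alternatives run on them. The number of probe sets called among all tested was 6 with choroid plexus markers as a covariate, 14 without replicate 1 of both groups and 1 without an intensity trend, against 3 as reported. With probe sets averaged per gene 1 gene was called, against 2 by their brightest probe set. The cause was not tested. Leaving out 1 array, the number of probe sets called ran from 3 to 5, with 5 without KO replicate 1. Of 304 comparisons of member changes between settings 35 had the other sign, all of values below the threshold. The 4 Scn8a sets kept a change below 0 in 16, 16, 15 and 16 of 16 alternatives, though without WT replicate 3 it was as small as -0.00426, and the Scn2b sets 1430648_at and 1436134_at kept their signs in 16 of 16, from -0.55 to -0.18 and from 0.13 to 0.21. The lowest adjusted p of any member was 0.0536, for 1430648_at without KO replicate 1 (0.0663 without replicate 1 of both groups). No label pairs samples of the same number, whose deviations from the group means had correlations of 0.241, 0.0542 and 0.0998. For KO and WT samples of different number they were -0.165 to 0.11. With the replicate block 11 probe sets were called in all and 0 among the members. The median SE was 0.106 for members and 0.177 over all tested probe sets.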
